A study of Mus musculus with 123 samples.

Results

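The genes described here are those whose messenger RNA in the mouse cortex lay below the control level during enforced wakefulness and still lay below it after the first hours of recovery sleep. A gene was included when its group mean was lower than that of controls sampled at the same hour by at least 0.2 on the log2 scale at each of 3 times: after 3 h of sleep deprivation, at its end after 6 h, and 6 h into recovery. Its mean level over all libraries also had to be at least 2. Of 13842 measured genes, 12221 reached that level and 121 met all 3 thresholds. Cirbp, Dbp, Kcnmb2, Opalin, Zfp280c and Zfp90 were left out by name, and 115 genes remained.

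Sleep and wakefulness change transcript levels in the cortex on top of the daily cycle. Many transcripts are tied to how long an animal has been awake, others to the circadian clock, whose transcription factors repress and activate each other over the day, and many to both. In nocturnal mice the light phase holds most of the sleep, so a gene that is high towards its end in undisturbed animals may be following either the hour or the sleep already obtained.

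RNA-seq and ATAC-seq, which reads open chromatin by transposase insertion, were run on the same animals' cortex; all were C57BL/6J males, 11 to 12 weeks old, and carried no engineered allele. Undisturbed controls were taken at zeitgeber time (ZT, hours after light onset) 0, 3, 6, 12 and 18, with 8, 3, 5, 5 and 5 RNA libraries. Sleep-deprived mice were kept awake by gentle handling from light onset at hour 24 to hour 30 of the experiment, and groups of 3 were taken at T27 and T30 (within deprivation and at its end) and at T36, T42, T48, T54, T60, T66, T72, T78, T192 and T198, all in recovery. One label field of the T36 samples places them in deprivation, while the protocol had ended it by then. The deprived groups came from batch 1, except T60, T66, T192 and T198, which were wholly from batch 2. The ZT3 controls were all of batch 1, and the other control groups held both batches. Each library is 1 animal, and the tissue is a mixture of cells, so that fewer cells of a type and less RNA per cell cannot be told apart.

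The genes were chosen by their RNA differences at these 3 times, which are given as a description, without a test. Their median was −0.29 at T27 against ZT3, −0.42 at T30 against ZT6 and −0.28 at T36 against ZT12, which corresponds to levels 1.23-fold, 1.33-fold and 1.22-fold lower. The difference was largest at T30 in 76 genes, at T27 in 20 and at T36 in 19. A single difference past the threshold was common among the 12221 genes: 8.71% passed at T27, 12.2% at T30 and 5.59% at T36, and 0.99% passed all 3. The deprived libraries lay wholly below the controls in 93 of the 115 genes at T27, in 92 at T30 and in 85 at T36, where 15.6%, 16.3% and 8.21% of all genes did so. In 60 genes this held at all 3 times, as it did in 1.51% of all genes; the rule used these contrasts, so nothing is read from these shares.

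**Figure D1:**
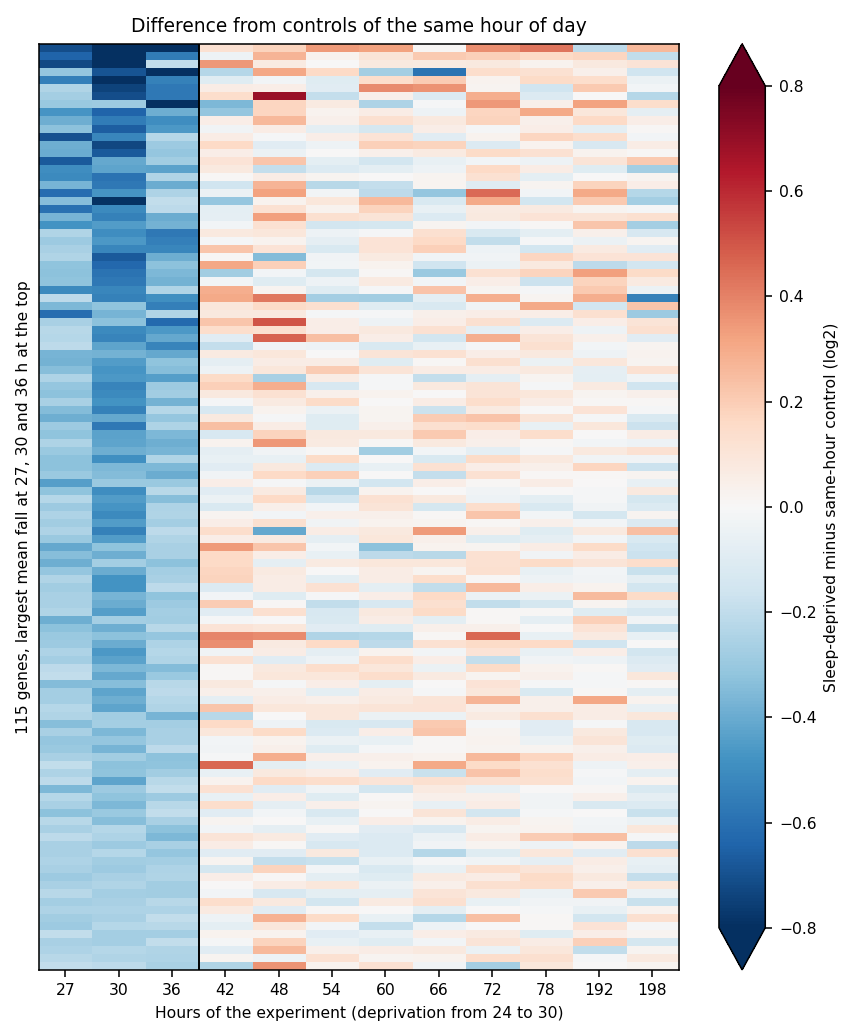
Difference between each sleep-deprived group and the controls of the same hour of day for the 115 genes (rows, ordered by the mean of the 3 differences that chose them) at 12 times (columns, hours), on the log2 scale, with the colour saturating at 0.8. The columns left of the black line chose the genes and are blue throughout. From T42 on the columns are a mixture of colours around 0, with medians between −0.03 and 0.06.

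The threshold cut through a continuous range. Top3a, Lamb3, Nmrk1 and Klhdc9 lay just inside it, each with a T36 difference of −0.20. Alox8, Carf, Ctsf and Gstm4 lay just outside, each with at least 1 difference of −0.20 that rounds to the threshold without reaching it. Another 163 genes had all 3 differences at or below −0.15 without meeting the rule, and 63 of the 115 genes had at least 1 difference above −0.25. Leaving out 1 library at a time gave between 98 and 141 genes, the lowest without the T36 animal T36S1, which left 87 of the 115.

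Promoters are shown for 4 genes, 3 whose open chromatin at the start site was called lower at the end of deprivation and Gkn3, the gene with the largest mean difference. Each is a window of 300 bases around the annotated start, mostly before it, in RefSeq's GRCm38.p6 annotation, 5′ to 3′ on the gene's strand. Capitals mark matches to the motifs searched on both strands, which were the E-box CACGTG, the D-box TTATGTAA, the cyclic AMP response element TGACGTCA, its shorter variant TGACGCA, the AP-1 site TGANTCA, the GC box GGGCGG and the CCAAT box CCAAT. Klhdc9 holds a pair of CCAAT boxes in reverse orientation, Pnma3 a GC box, Gkn3 a reversed D-box, and Vwa3a none of these letters in this window.
Klhdc9, chr1:171360749-171361048, minus strand: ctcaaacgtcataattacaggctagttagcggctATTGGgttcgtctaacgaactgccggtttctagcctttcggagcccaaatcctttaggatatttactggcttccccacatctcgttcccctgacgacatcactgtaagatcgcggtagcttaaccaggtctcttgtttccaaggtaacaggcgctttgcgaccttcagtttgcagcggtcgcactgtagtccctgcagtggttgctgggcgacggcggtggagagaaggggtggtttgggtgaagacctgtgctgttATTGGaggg
Vwa3a, chr7:120739307-120739606, plus strand: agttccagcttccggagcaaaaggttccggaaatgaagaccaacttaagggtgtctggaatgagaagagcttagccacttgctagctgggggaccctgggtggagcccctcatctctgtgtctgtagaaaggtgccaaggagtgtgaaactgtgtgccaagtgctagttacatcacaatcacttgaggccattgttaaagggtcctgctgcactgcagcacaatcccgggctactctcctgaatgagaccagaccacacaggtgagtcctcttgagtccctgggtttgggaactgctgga
Pnma3, chrX:73064537-73064836, plus strand: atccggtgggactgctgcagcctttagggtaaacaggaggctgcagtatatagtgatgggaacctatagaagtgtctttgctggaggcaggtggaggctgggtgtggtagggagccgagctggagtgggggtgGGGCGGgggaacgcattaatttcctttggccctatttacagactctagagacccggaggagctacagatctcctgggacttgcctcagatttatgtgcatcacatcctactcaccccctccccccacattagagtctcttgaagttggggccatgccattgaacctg
Gkn3, chr6:87388886-87389185, minus strand: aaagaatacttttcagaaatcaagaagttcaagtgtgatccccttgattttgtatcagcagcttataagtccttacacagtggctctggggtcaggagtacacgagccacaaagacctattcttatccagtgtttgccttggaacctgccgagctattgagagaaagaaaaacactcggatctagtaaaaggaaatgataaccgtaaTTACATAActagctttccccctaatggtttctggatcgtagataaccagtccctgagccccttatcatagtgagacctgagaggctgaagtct

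Gkn3, which encodes a secreted gastrokine and whose transcript in brain is known from arterial endothelium, had the largest mean difference. Its deposited log2 levels were 2.24, 2.36 and 2.56 in ZT3 controls and 1.58, 1.71 and 1.72 at T27. They were 1.91, 2.11, 2.17, 2.19 and 2.50 at ZT6 against 0.56, 1.20 and 1.22 at T30, a level 2.27-fold lower. At no time did the groups overlap, and at T36 the 3 libraries (1.83, 1.84 and 2.19) still lay below all 5 ZT12 controls (2.69 to 2.97). The summed level of 7 endothelial markers, with the log2 undone, overlapped between the groups: 198 to 214 at ZT6 and 197 to 209 at T30. Single markers moved in opposite directions. At T27, T30 and T36, 1, 1 and 0 were called lower and 1, 1 and 1 higher (limma, adjusted p below 0.05). Of all genes 7.37%, 15.6% and 4.46% were called lower and 8.21%, 16% and 7.46% higher. At T30 Slco1a4 was lower (−0.41) and Slc2a1 higher (0.32). The part of these cells in the Gkn3 difference was not tested.

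Vwa3a, a von Willebrand factor A domain protein found in tissues with motile cilia, and Klhdc9, a kelch repeat protein, followed with the largest differences at T30. Vwa3a stood at 2.92, 2.93, 2.99, 3.45 and 3.45 at ZT6 and at 1.79, 1.96 and 2.1 at T30. Klhdc9 stood at 2.57, 2.64, 2.75, 2.75 and 2.81 at ZT6 and at 1.59, 1.72 and 1.73 at T30. Both were separated from their controls by more than the spread within either group. They differed in recovery: at T36 Klhdc9 was lower by only 0.20, the smallest T36 difference beside those of Top3a, Lamb3 and Nmrk1, whereas Vwa3a was still lower by 0.56. Wbscr27, the RefSeq gene Mettl27, a methyltransferase-like protein, read 2.12, 2.33 and 2.34 at T30 against 2.95 to 3.20 at ZT6, a level 1.77-fold lower.

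**Figure D2:**
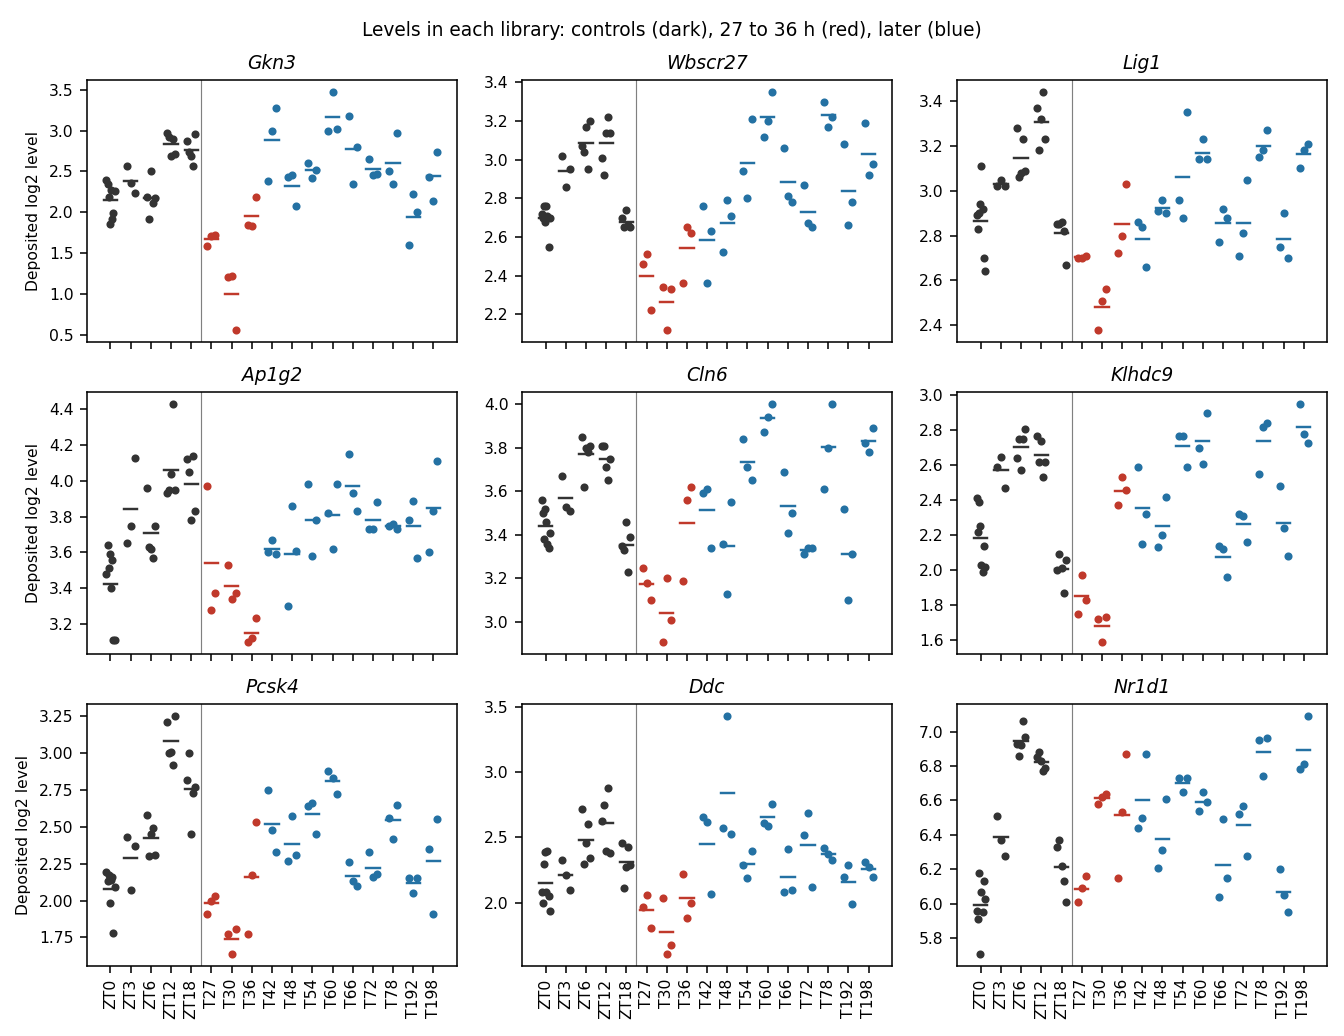
Deposited log2 level of 9 of the genes in each RNA library (points) with group means (bars), for the 5 control groups (left of the line), the 3 groups that chose the genes (red) and the 9 later groups (blue). Gkn3, Wbscr27, Lig1, Cln6 and Klhdc9 are lowest at T30, Ap1g2 is lowest at T36, and Nr1d1 at T30 lies below its ZT6 controls but above all its ZT0 controls.

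Of the 115 genes, 78 could be placed in 11 groups by known function. These groups were drawn up after the values were known, so only counts, medians and ranges are given for them.

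Genes of the cilium, the centriole and sperm formed a group of 9, with median differences of −0.32, −0.43 and −0.36 at T27, T30 and T36. Spag6l, a protein of the central apparatus of motile cilia, was lower by 0.50, 0.42 and 0.43, a near-constant deficit. Lrrc6, needed to assemble ciliary dynein arms, was lower by 0.26, 0.52 and 0.52. Pcsk4, a proprotein convertase best known from sperm, widened from −0.31 to −0.69 and −0.92, and was the member furthest below its controls at T36. Its T36 libraries read 1.77, 2.17 and 2.53 against 2.92 to 3.25 in the ZT12 controls. Erich3, Cep44, Spata24, Izumo4, Eqtn and Slc26a8 completed the group. A separate list of 30 primary cilium genes held 0 members, and its medians were −0.029, −0.003 and −0.042.

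DNA replication and repair supplied 8 genes, with medians of −0.34, −0.39 and −0.25. Lig1, the ligase that joins Okazaki fragments and completes excision repair, read 3.06, 3.08, 3.09, 3.23 and 3.28 at ZT6 and 2.38, 2.51 and 2.56 at T30. Fancm, a helicase of the Fanconi anaemia pathway, was lower by 0.33, 0.39 and 0.22. Mcm8, Top3a, Uvssa, Dsn1, E2f1 (a transcription factor of the cell cycle) and 3010026O09Rik, the RefSeq gene Mrnip, were the others. In the DNA repair list of 52 measured genes, of which Lig1 and Fancm were the only members, 7 were called lower and 1 higher at T27, 18 and 6 at T30, and 3 and 2 at T36 (limma, adjusted p below 0.05), where 7.37%, 15.6% and 4.46% of all genes were called lower, 8.21%, 16% and 7.46% higher, and 15.6%, 31.6% and 11.9% in either direction. The list includes Lig1 and Fancm, which these same contrasts chose, so the counts are a description.

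Transcription and chromatin supplied 10 genes. Nr1d1, the nuclear receptor REV-ERBα that represses clock genes, was the only member among 20 measured genes of the clock and its output; Dbp, a clock output gene, met the same thresholds (−0.40, −0.96 and −0.63) and was left out by name. The Nr1d1 libraries read 6.86 to 7.06 at ZT6 and 6.58, 6.62 and 6.64 at T30, a difference of −0.33. The Nr1d1 differences at T27 (−0.30) and T36 (−0.31) were of much the same size. Thap3, a THAP zinc finger protein, was lower by 0.51, 0.59 and 0.24, and Hes6, a basic helix-loop-helix factor that counters Hes1, by 0.24, 0.50 and 0.57. Zkscan2 and Zkscan16, zinc finger proteins, were 2 of 25 measured genes of the Zkscan and related symbol families. Med12, of the Mediator kinase module, Tcea2, an elongation factor, L3mbtl1, Ebf4 and Rps6ka5 were the others.

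Receptors, ligands and their transducers were the largest group, with 13 genes. Lepr, the leptin receptor, was lower by 0.61 at T27 and by 0.25 at T36. Frzb, a secreted Wnt antagonist, was lower by 0.47, 0.64 and 0.39, and Paqr6, a progestin receptor family protein, by 0.67, 0.41 and 0.28. Htr2c, the serotonin 2C receptor, went the other way, from −0.26 at T27 to −0.62 at T36. Htr2c is also strongly expressed in choroid plexus, and the highest of its 3 ZT3 values, 3.40, came from the animal T3N2, in which Ttr, a choroid plexus transcript, read 7.54 against 4.66 and 2.95 in the other ZT3 animals and 1.51 to 2.29 at T27. The summed level of 3 choroid plexus markers (log2 undone) was 164 to 378 at ZT3 and 137 to 150 at T27, 157 to 176 at ZT6 and 147 to 148 at T30, and 164 to 171 at ZT12 and 152 to 153 at T36. Of these markers 3, 1 and 0 were called lower and 0 higher at T27, T30 and T36 (limma, adjusted p below 0.05). Of all genes 7.37%, 15.6% and 4.46% were called lower. At T30 Enpp2 was called (−0.18), while Ttr stood at −0.22 ± 0.71 and Kl at 0.04 ± 0.13 (SE). At T36 Enpp2 stood at −0.14, Ttr at 0.04 and Kl at 0.06. The sum of 6 meningeal markers was 51.9 to 73.5 at ZT3 and 42.8 to 50.1 at T27. Without T3N2 the rule gave 113 genes, 98 of them among the 115; its part in the other differences was not tested.

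Both enzymes of monoamine handling were markedly lower at T30. Ddc, aromatic amino acid decarboxylase, which makes dopamine and serotonin, read 2.30, 2.34, 2.46, 2.60 and 2.72 at ZT6 and 1.61, 1.68 and 2.04 at T30. Hnmt, which inactivates histamine by methylation, was lower by 0.23, 0.45 and 0.34 at the 3 times.

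Among 10 genes of intermediary metabolism, Eno3, the muscle form of enolase, was lower by 0.39, 0.56 and 0.50, and Aloxe3, an epidermal lipoxygenase, by 0.37, 0.57 and 0.40. Mthfd1l, the mitochondrial formate-producing enzyme of the folate pathway, was lower by 0.23, 0.53 and 0.41. Phka2, Sord, Acat2, Nmrk1, Gda, Asah2 and Prdx4 lay between −0.20 and −0.45 throughout.

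Lysosomal and trafficking genes numbered 8. Cln6, an endoplasmic reticulum protein whose loss causes a neuronal ceroid lipofuscinosis, read 3.62, 3.78, 3.80, 3.81 and 3.85 at ZT6 and 2.91, 3.01 and 3.20 at T30. Galns, a lysosomal sulfatase, held an almost even deficit of 0.37, 0.38 and 0.41. Arsg, another lysosomal sulfatase, deepened from −0.29 to −0.55. Sytl2, a Rab27 effector in vesicle transport, was lower by 0.40, 0.67 and 0.31, and Ap1g2, an adaptor subunit, was lower by 0.30, 0.29 and 0.91. Ap1g2 read 3.10, 3.12 and 3.23 at T36, below all its ZT12 controls (3.93, 3.95, 3.95, 4.04 and 4.43). Cln6 and Galns were the only members among 29 measured lysosomal genes, of which 6, 13 and 5, members included, were called lower and 1, 2 and 1 higher at the 3 times (limma, adjusted p below 0.05), beside 7.37%, 15.6% and 4.46% of all genes called lower. These contrasts chose Cln6 and Galns, so the lysosomal counts are a description.

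Trem2, a lipid-sensing receptor of microglia, was the only member among 8 microglial markers, of which 1, 4 and 0 were called lower and 0, 1 and 1 higher at the 3 times (limma, adjusted p below 0.05). At T30 Tmem119 was the marker called higher (0.30). Of all genes, 7.37%, 15.6% and 4.46% were called lower and 8.21%, 16% and 7.46% higher at the 3 times. The same shares stand beside the oligodendrocyte counts below. These contrasts chose Trem2, so the microglial counts are a description. Trem2 was lower by 0.25, 0.51 and 0.24, and read 3.18, 3.22 and 3.47 at T30 against 3.55 to 3.96 at ZT6. Ly86, Cd83 and Lsp1, all expressed by immune cells, were lower by 0.39, 0.42 and 0.53 at T30. The summed level of the 8 microglial markers was 268 to 281 at T30 and 297 to 305 at ZT6, without overlap; at T27 and T36 the ranges overlapped those of the controls. The part of these cells in the immune genes was not tested. The marker lists for excitatory and inhibitory neurons, astrocytes, endothelium, mural cells, meninges and choroid plexus held 0 members. For oligodendrocytes the rule decided this in part: it left out Opalin, which met the thresholds (−0.35, −0.95 and −0.42), and Aspa by name. Of 10 oligodendrocyte markers, those 2 included, 0, 4 and 2 were called lower and 0 higher at the 3 times, and their sum was 1930 to 2090 at T36 and 2070 to 2620 at ZT12. Their part in the differences was not tested. Neuron markers stood high in all libraries, at 2890 to 3320 in sum for 10 excitatory markers in the controls and deprived groups at these 3 hours.

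The genes also differed in how steady the deficit was. Slc12a9, an orphan member of the cation chloride cotransporter family, was lower by 0.25 at each of the 3 times, and Cdh18, a cadherin, Tcea2, Phka2, Fam214a and Nr1d1 varied by at most 0.03 between times. Deprived and control libraries overlapped at T36 for Phka2 and Nr1d1 and at T30 for Cdh18. The T36 mean of Phka2 leaned on T36S1 at 4.59. T36S4 and T36S2 read 5.10 and 5.23, and the ZT12 controls 5.17 to 5.52. Klhdc9, Vwa3a, Ap1g2 and Pcsk4 varied most, by between 0.61 and 0.82.

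The same genes moved over the day in undisturbed mice. Relative to ZT0, their median level was higher by 0.15 at ZT3, 0.20 at ZT6 and 0.30 at ZT12, and had returned to −0.01 by ZT18, and 85 of the 115 had their control maximum at ZT12, against 18.6% of all genes. The ZT3, ZT6 and ZT12 libraries helped to choose the genes, so this daily course is a description. In deprived mice the median relative to ZT0 was −0.17 at T27 and −0.20 at T30, where 109 of the 115 lay below their ZT0 mean, and −0.01 at T36. The medians of all genes were −0.006, −0.001 and 0.001, and the share of all genes below ZT0 was not computed. The T27, T30 and T36 libraries also chose the genes, by their low values. The rule thus favours levels below ZT0, and these values too are a description. Over the light phase these transcripts stood above their level at light onset in undisturbed mice and below it in mice kept awake. After 6 h of recovery, at T36, they were near the light onset level, while controls of that hour were at their highest.

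**Figure D3:**
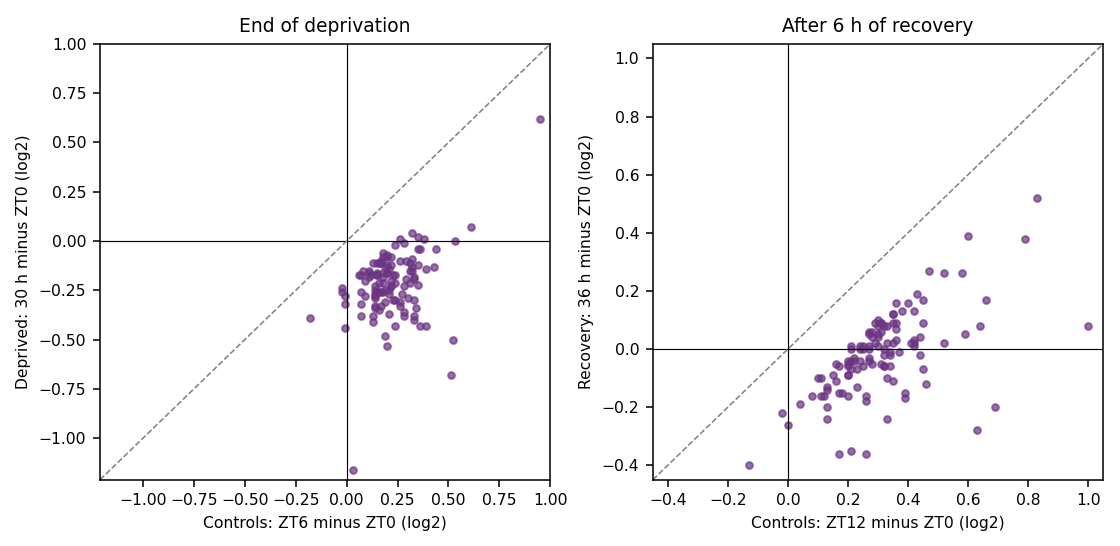
Change since light onset (ZT0) in undisturbed controls (horizontal axis) and in sleep-deprived mice of the same hour (vertical axis), on the log2 scale, with 1 point per gene and the line of equality dashed. At the end of deprivation (left) most points lie right of 0 and below 0, with medians of 0.20 and −0.20. At T36 (right) the medians are 0.30 and −0.01. All points lie below the dashed line, as the rule fixed.

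Later light phases gave a measurement of this daily rise in animals that entered the rule only through the mean level over all libraries. Mice taken at ZT6 were compared with mice taken at ZT0 on the same day of recovery: T54 with T48, T78 with T72, and T198 with T192, 3 animals each and both groups from 1 batch. Of the 115 genes, 90, 105 and 94 were higher at ZT6, with median differences of 0.15, 0.17 and 0.14, where the median of all genes was 0.00, 0.00 and 0.01. In a limma fit to all genes (adjusted p below 0.05), 23 rose and 2 fell between T48 and T54, 15 rose and 0 fell between T72 and T78, and 13 rose and 0 fell between T192 and T198. The shares of all genes that rose were 5.14%, 2.18% and 3.81%, those that fell 5.74%, 2.4% and 6.13%, and those called in either direction 10.9%, 4.58% and 9.95%. At an unadjusted p below 0.05, 0 and 1 members fell in the T78 and T198 comparisons, which had no adjusted call for a fall. In either direction 43.5% and 34.8% of the members passed it there, where 18.7% and 25.1% of all genes did. In all, 37 genes rose in at least 1 of the 3 comparisons, 11 in at least 2, and Cln6, Klhdc9 and Sord in each. These comparisons were added after the data had been seen. Marker genes moved with the first of them: the sum of 10 oligodendrocyte markers was 2960 to 3370 at T48 and 2140 to 2280 at T54, with 7 called lower and 0 higher, and 2 of 5 striatal markers were called lower. Between T72 and T78 and between T192 and T198 the oligodendrocyte sums overlapped and 0 of the 10 markers were called. The part of these cells in the first comparison was not tested. The counts depend on single animals: leaving out 1 gave 8 to 28, 2 to 9 and 7 to 17 calls. Without T48S1, T54S1 or T54S2 the first count was 9, 8 or 11; without any 1 of its 6 libraries the second was 9 or lower, with 2 without T78S4; and without J70S3 or J76S1 the third was 7 or 8.

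Klhdc9 read 2.16, 2.31 and 2.32 at T72 and 2.55, 2.82 and 2.84 at T78. A week after deprivation it read 2.08, 2.24 and 2.48 at T192 and 2.73, 2.78 and 2.95 at T198, a rise of 0.55 ± 0.11 (SE; limma adjusted p = 0.00072). The groups did not overlap on either day. Cln6 rose by 0.39 ± 0.10, 0.47 ± 0.10 and 0.52 ± 0.10 on the 3 days (limma adjusted p = 0.00945, 0.00278 and 0.000646), and all 3 animals at ZT6 lay above all 3 at ZT0 on each day. Sord, sorbitol dehydrogenase, rose by only 0.15 to 0.17 but with a small spread, reading 3.80, 3.84 and 3.85 at T192 and 3.97, 4.00 and 4.02 at T198. Nr1d1 rose by 0.83 ± 0.12 between T192 and T198 (limma adjusted p = 1.88e-05) and by 0.43 ± 0.12 between T72 and T78 (limma adjusted p = 0.0283). Lig1, Parn and Pnma3 were called higher on the same 2 days. The 2 that fell between T48 and T54 were Ddc, by 0.55, and Gnb4, a G protein beta subunit, by 0.51. Gnb4 read 4.29, 4.43 and 4.51 at T48 and 3.76, 3.89 and 4.07 at T54, without overlap. Ddc did not pass without T48S3 (−0.25, adjusted p = 0.318), T54S1 or T54S2, and Gnb4 did not pass without T48S1 or T54S2. Klhdc9 passed on all 3 days whichever library was left out. Cln6 lost its call without T48S3 or T54S1 on the first day and without T78S4 on the second. Sord lost its call without 1 of T48S1, T54S1, T54S2, T72S2, T72S4, T78S3, T78S4, J70S2, J70S3 or J76S1, and the T78 call of Nr1d1 was lost without T72S2, T72S4, T78S2 or T78S4. At T78 the call of Parn was lost without any 1 of its 6 libraries and in batch 1 alone, that of Lig1 without T72S2, T72S3, T78S3 or T78S4, and that of Pnma3 without T72S3 or T78S4. At T198 all 3 calls were lost without J70S3, and that of Parn also without J76S1 or J76S3.

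From T42 on, the deficit against controls of the same hour was not seen. At T42, 6 h after the last of the 3 times, the genes were compared with ZT18 controls. These entered none of the differences that chose the genes. The controls had themselves fallen by then, from a median of 0.30 above ZT0 at ZT12 to −0.01 at ZT18. Deprived mice had already stood at −0.01 at T36, and a rise in them between T36 and T42 was not tested. ZT18 was the lowest control group in 58 genes and ZT0 in 50. All tested comparisons of deprived groups with controls used ZT18 or ZT0. The median difference was 0.01 (0.00 for all genes), and 64 of 115 were above 0. The test called 0 lower and 2 higher (limma, adjusted p below 0.05). Of all genes 1.05% were called, 0.433% lower and 0.614% higher. At an unadjusted p below 0.05, 4 were lower and 10 higher. In either direction this was 12.2% of the 115 genes, near the 12.4% of all genes. Smim19, a small membrane protein, read 4.54, 4.55 and 4.61 at T42 and 4.29 to 4.35 in the 5 ZT18 controls (difference 0.24 ± 0.06, limma adjusted p = 0.0199). Ighg2c, an immunoglobulin heavy chain constant region, read 2.77, 2.85 and 2.96 against 2.21 to 2.50 (0.46 ± 0.12, limma adjusted p = 0.039). Neither call held in batch 1 libraries alone (adjusted p = 0.0558 and 0.148), and both were lost without 1 of T18N2, T18N4, T42S2, T42S4 or T42S6, so that no T42 library could be left out with either call kept. The call of Ighg2c was also lost without T18N3 or T18N8. Immunoglobulin genes share sequence with near-identical copies, so the level of Ighg2c is uncertain.

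**Figure D4:**
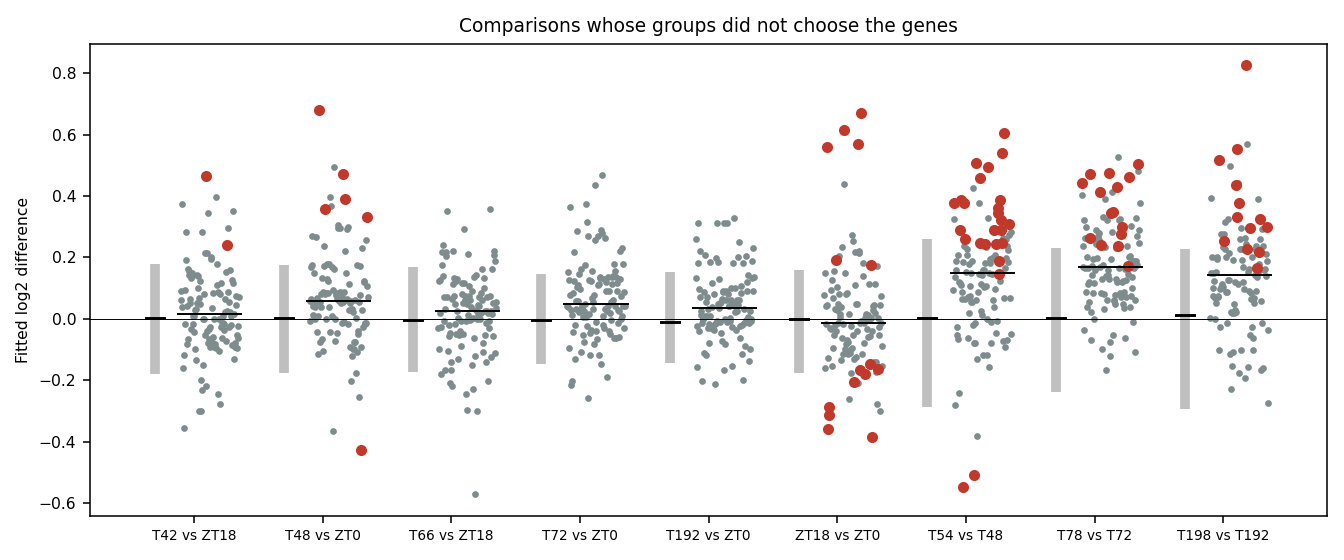
Fitted log2 difference of each of the 115 genes (grey points; red where the limma adjusted p was below 0.05) in the 9 comparisons whose libraries entered the rule only through the mean level, with their median (line), beside the central 90% and median of all 13842 genes (grey bar and tick). In the recovery comparisons against controls the genes spread around 0, with medians from 0.01 to 0.06. In the 3 comparisons on the right, of ZT6 with ZT0 in recovery, the medians are 0.14 to 0.17.

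At T48, a day after deprivation began and at ZT0, the genes sat slightly above controls, with a median difference of 0.06 and 83 of 115 above 0. The test called 5 higher and 1 lower, where 1.27% of all genes were called, 0.701% lower and 0.571% higher (limma, adjusted p below 0.05). The T48 libraries also differed from ZT0 in marker genes: the sum of 10 excitatory neuron markers was 2800 to 2930 against 2980 to 3220, without overlap, and that of oligodendrocyte markers 2960 to 3370 against 2240 to 3020. Their part in the T48 differences was not tested. Mthfd1l was the firmest of the calls: 3.18, 3.23 and 3.23 at T48 against 2.57 to 2.86 in 8 controls, a difference of 0.47 ± 0.10 (limma adjusted p = 0.00627) that held without any 1 library. Ddc was higher by 0.68 ± 0.14 (limma adjusted p = 0.00745), although 1 library, T48S3 at 3.43, carried much of this. Without it the difference was 0.39 (adjusted p = 0.222), and the same library decided Erich3 (0.36, and 0.24 without it, adjusted p = 0.162) and Wdr6, a WD repeat protein (0.33, and 0.17 without it, adjusted p = 0.425). Nr1d1 was higher by 0.39 ± 0.10 (limma adjusted p = 0.0449), and by 0.27 without T48S4 (adjusted p = 0.336). Its call was lost in 7 of 11 refits without 1 library, in batch 1 alone, with no trend and with animal number as a block. That of Wdr6 was lost in 5 of 11 such refits and in batch 1 alone, and that of Ddc also in batch 1 alone. Tnnt2, cardiac troponin T, was lower, with 3.51, 3.52 and 3.52 against 3.66 to 4.22 in controls, a difference of −0.43 ± 0.09 (limma adjusted p = 0.0105) that missed the threshold without T48S4 (adjusted p = 0.0507). The count of 6 calls was 2 without T48S3 and 3 without T48S4.

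Among the functional groups at T48, 10 of 11 had a median above 0; no difference between groups was tested. All 13 receptors, ligands and transducers were at or above their ZT0 level, with a median of 0.18, a group chosen with these values known; Htr2c (0.50), Gnb4 (0.36), Lepr (0.32) and Plch1 (0.29) were the highest, and none passed the test. The highest Htr2c value, 4.05, came from T48S3; the other libraries read 3.11 and 3.14. Transporters had the median below 0 (−0.06). Medians were also near 0 for RNA metabolism (0.03), lysosome and trafficking (0.03), immune (0.04), DNA repair (0.05) and transcription genes (0.05).

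At T66 against ZT18, and at T72 and T192 against ZT0, 0 of the 115 genes were called in either direction, where 0.0795% (0.0361% lower, 0.0433% higher), 0.00722% and 0% of all genes were called (limma, adjusted p below 0.05). At an unadjusted p below 0.05, 15, 21 and 11 were counted, 11, 17 and 10 of them higher, which is 13.0%, 18.3% and 9.57% of the genes against 10.4%, 7.81% and 7.51% of all genes. Against ZT6 and ZT12 controls, which had chosen the genes, the medians were −0.02 at T54, 0.02 at T60, 0.02 at T78 and −0.03 at T198; these comparisons share their controls with the rule and are given without a test. Without T18N4 the count at T66 was 1.

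Undisturbed mice at ZT18 and ZT0, neither of which entered the differences of the rule, differed in 15 of the 115 genes, 6 higher and 9 lower at ZT18, where 6.89% of all genes were called, 3.64% higher and 3.25% lower (limma, adjusted p below 0.05). Pcsk4 was higher by 0.67 ± 0.10, with 2.45, 2.73, 2.77, 2.82 and 3.00 at ZT18 and 1.78 to 2.19 at ZT0. Gkn3 (0.62 ± 0.14), Mthfd1l (0.57 ± 0.08) and Ap1g2 (0.56 ± 0.11) rose similarly and their groups did not overlap. With Pcsk4, these genes were still above their ZT0 level in the night, after a control maximum at ZT12. E2f1 and Sord were higher by 0.19 and 0.18. The genes lower at ZT18 were Spata24 (−0.39), Arsg (−0.36), BC022960, Caprin2 (−0.29), Lppr1, Prdx4 (−0.18), Parn (a poly(A) ribonuclease, −0.17), Triqk (−0.16) and Smim19 (−0.15). In batch 1 libraries alone 4 of the 15 passed, and without T18N3 9 did. Over 13 refits without 1 library, Lppr1 kept its call in 2, Prdx4 in 6, Smim19 in 7, and Parn and Triqk in 8. BC022960 and Spata24 kept theirs in 12, and the other genes in all 13. Of 10 oligodendrocyte markers, 6 were called lower and 0 higher at ZT18 (limma, adjusted p below 0.05). Their sums overlapped (2010 to 2470 at ZT18, 2240 to 3020 at ZT0), and their part in these differences was not tested.

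Open chromatin was read at the start sites. A RefSeq promoter was found for 89 of the genes, and 75 had at least 1 of 90 deposited peaks within 1 kb of a start. At T30 against ZT6, 3 of these 90 peaks were called lower and 0 higher (limma on log2 signal, adjusted p below 0.05), where 0.402% of 11693 start peaks of all measured genes were called lower and 0.496% in either direction. At T27, T36, T42 and T48 the count was 0, where 0.0428% (0.0171% lower), 0.0599%, 0% and 0% of all start peaks were called. Of all peaks, 0.689%, 0.618%, 0% and 0.00153% were called at these times, and 2.6% at T30. At an unadjusted p below 0.05, 10, 9, 4 and 2 of the 90 were counted at these 4 times. The counts among the 11693 start peaks of all measured genes were 1063, 763, 265 and 695. At T30 they were 16 of the 90 and 1098 of the 11693. The medians of the 90 peaks at T27 (−0.17) and T30 (−0.15) lay near those of all start peaks (−0.14 and −0.11). RNA and ATAC libraries came from the same animals, so the assays are not independent samples of mice.

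The Klhdc9 peak, chr1:171360162-171361990 on mm10, spans the start site of the promoter shown above and also lies within 1 kb of a start of the neighbouring gene Pfdn2. Its signal was 46.8 to 57.1 in the 5 ZT6 controls (52.1 ± 3.72, SD) and 33.3 to 40.0 in the 3 T30 libraries (35.7 ± 3.71), a difference of −0.53 ± 0.13 on the log2 scale (SE; limma adjusted p = 0.00866). The groups did not overlap, and the T27 libraries (33.2 to 39.6) also lay below the ZT3 controls (41.4 to 53.8). The Vwa3a peak, chr7:120739569-120740350, begins 12 bases after the start, and read 9.62 to 14.7 at ZT6 and 6.70 to 7.52 at T30 (−0.79 ± 0.20, limma adjusted p = 0.0126), also without overlap. The Pnma3 peak, chrX:73063905-73064955, read 5.76 to 12.5 at ZT6 and 2.91 to 6.96 at T30, where the groups overlapped (−0.82 ± 0.23, limma adjusted p = 0.0283). Pnma3, a paraneoplastic antigen family protein, had RNA differences of −0.33, −0.51 and −0.28. Leaving out T6N4, T30S1 or T30S4 reduced the 3 calls to 1, and leaving out J76N1 raised them to 5. The Klhdc9 call was lost without T30S1 (adjusted p = 0.0834) or T30S4 (0.0753), the Vwa3a call without T6N4, T30S1 or T30S3 (0.0557 to 0.0594), and the Pnma3 call without J76N2, T6N4, T30S3 or T30S4 (0.06 to 0.342) and with no batch term (0.052).

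**Figure D5:**
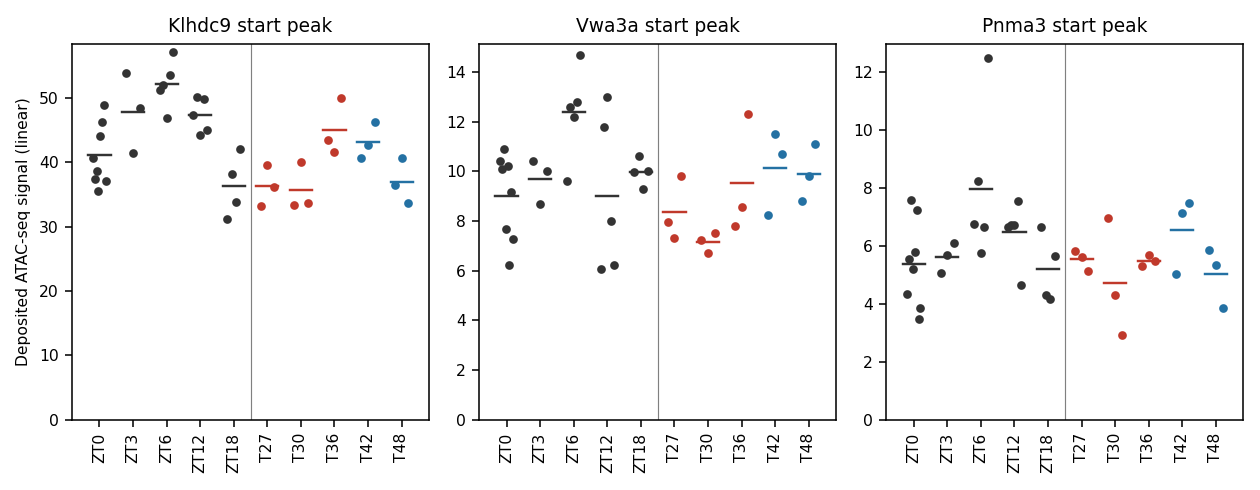
Deposited ATAC-seq signal (linear, normalized by the authors) in each library (points) with group means (bars) at the start peaks of Klhdc9, Vwa3a and Pnma3, for controls (dark), T27 to T36 (red) and T42 and T48 (blue). The T30 libraries lie below all ZT6 controls for Klhdc9 and Vwa3a and overlap them for Pnma3.

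With the window widened to 2.5 kb, 112 peaks of 82 genes were covered. A peak 1773 bases from the start of Ly86, chr13:37342695-37343572, which lies within 1 kb of a start of Gm40913 but not of Ly86, was higher in deprived mice, with 13.3 to 14.3 at T27 against 5.62 to 8.99 at ZT3 (0.94 ± 0.23, limma adjusted p = 0.0228) and 9.12 to 15.1 at T30 against 5.54 to 7.13 at ZT6 (0.92 ± 0.21, limma adjusted p = 0.00486). The groups did not overlap at either time. The RNA of Ly86 was lower at both times, by 0.27 and 0.39. Whether the peak belongs to Ly86 was not tested.

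The letters searched are given beside their share in other promoters. Among 106 promoters of the 89 genes, 7.55% held an E-box (9.55% of 13755 promoters of all measured genes), 1.89% a D-box (0.538%), 0.943% a cyclic AMP response element (2.92%), 4.72% its shorter variant (3.37%), 7.55% an AP-1 site (5.08%), 54.7% a GC box (61.0%) and 39.6% a CCAAT box (37.3%). The D-box share rests on 2 promoters and that of the cyclic AMP response element on 1. The D-box matches were those of Gkn3 and Vmn2r84, and E-box matches included Lig1 and Mcm8. A match is a description of letters and not a binding site. The median GC content was 59.0% against 60.7%, and the observed over expected CpG ratio 0.60 against 0.74. Genes of the set spanned a median of 23.6 kb, against 25.2 kb for all matched genes, and 111 were annotated as protein coding. The X chromosome carried 8 of the 115 genes (1.61% of its measured genes) and chromosome 14 carried 1 (0.213%).

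Some levels are uncertain because reads can be shared. Gm13304, Vmn2r84, Ighg2c, H2-M6-ps, Gm5148 and Gm5857 are pseudogenes, gene models or members of families with near-identical copies. The RefSeq span of 44 of the 114 matched genes overlaps another gene, among them Nr1d1 with Thra, Klhdc9 with Pfdn2, Ap1g2 with Thtpa, Wdr6 with Dalrd3 and Smim19 with Slc20a2.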

How the data were processed

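RNA-seq and ATAC-seq were made from cortex of the same mice, per the labels. RNA reads numbered over 36 M per library (median 55 M) and ATAC reads over 25 M (median 41 M), per the labels' protocols. The submitters' processing notes name kallisto 0.43.0, sleuth 0.29.0, Bowtie2, MACS2 2.1.1, HTSeq 0.6.1 and bedtools 2.26.0 with builds GRCm38 and mm10, but no order or settings. The deposited RNA table holds log2 levels of 13842 genes in 62 columns, and the deposited ATAC table holds normalized signal over 130727 peaks, of which 59 libraries were used; raw counts were not used here. How gene length entered the RNA table was not stated in the labels, so levels are not compared between genes. RNA column sums after undoing the log2 lay between 944370 and 1022975, and library medians between 4.44 and 4.49. The first RNA column merges both libraries of 1 ZT0 animal and counts as 1.

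Each comparison used limma 3.58.1 in R 4.3.3, fitted to all genes or to log2 of the signal plus 0.5 of all peaks, with a mean per group, a batch term and an intensity trend (44 and 41 residual degrees of freedom). Tests were two-sided, with Benjamini-Hochberg adjustment over all features and calls below 0.05. The script was tested on simulated data. Starts came from RefSeq GRCm38.p6, since the files give peak but not gene positions; 114 genes matched, 3 by a synonym. Genes were named by a rule (the 20 largest mean differences, those called in a test, those nearest the threshold, the 6 highest levels, those with the steadiest or most variable differences, and list members), and others were named after their values were seen, as were the functional groups and the 3 comparisons within recovery. The members and lists were chosen with earlier results of these data known. Alternatives were the batch term, batch 1 alone, centring, the trend, a level filter, the pseudocount, the window, animal number as a block, and each library left out.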

Additional observations from a re-analysis of the deposited data

Results flagged for a closer look

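Within groups of 4 to 10 RNA libraries, the highest or lowest value of 36 genes was compared with its neighbours in 144 gene and group pairs. In 6 a single library stood apart by Dixon's test, and chance flags about 1 pair in 20. In ZT12 controls T12N5 was high for Ap1g2 (4.43, next 4.04) and T12N1 was high for Lepr (2.56, next 2.22). In ZT6 controls T6N2 was low for Mthfd1l (2.85, next 2.99) and T6N3 was low for Parn (4.03, next 4.32). T18N8 was low for Lig1 at ZT18 (2.67, next 2.82), and T0N9 was low for Wbscr27 at ZT0 (2.55, next 2.68).

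For 2 of the 115 genes the deprivation effect differed between T42 and T48 when the difference of both effects was tested (limma, adjusted over 13842 genes, of which 140 passed). Mthfd1l went from −0.09 at T42 to 0.47 at T48, a difference of 0.56 ± 0.14 (limma adjusted p = 0.0279). Tnnt2 went from 0.14 to −0.41, a difference of −0.55 ± 0.13 (limma adjusted p = 0.025). All 3 libraries at T48 lay outside the range of the ZT0 controls for both genes.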

How the results depend on the processing

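The rule gave 138 genes in batch 1 libraries alone (109 of the 115 among them), 126 with each library centred (112 among them), and 98 to 141 when 1 library was left out. At T42 the count of 2 calls became 4 with no batch term, 0 in batch 1 alone and 0 to 2 with 1 library left out. At T48 it became 3 in batch 1 alone and 2 to 8 with 1 library left out. At T66 it became 1 with no batch term, with no trend and with the level filter, and 0 to 1 with 1 library left out; at T72 and T192 it was 0 under every alternative run. Between ZT18 and ZT0 the 15 calls became 4 in batch 1 alone and 9 to 16 with 1 library left out. For ZT6 against ZT0 in recovery the ranges with 1 library left out were 8 to 28 (T54), 2 to 9 (T78) and 7 to 17 (T198). Start peak calls at T30 ranged from 1 to 5 with 1 library left out, and the window of 2.5 kb gave 1 call at T27. With animal number as a replicate block the counts were 2 at T42, 5 at T48, 12 for ZT18 against ZT0 and 3 start peaks at T30. The numbers did not pair the animals: the median correlation of same-numbered libraries of different groups was −0.0007 for RNA and −0.0047 for ATAC. Of 1074 refits of single called genes or peaks, 825 kept their call, 249 lost it and 0 changed sign. A count test on ATAC reads was not run, because whole reads could not be recovered in all libraries. The groups of 3 limit what small differences can be seen: in the RNA comparisons of deprived groups the median standard error was 0.09 to 0.10.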
